A study of Mus musculus with 26 samples.

Results

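Of the 327 genomic regions whose predicted enhancer activity differed between embryonic stem cells in leukemia inhibitory factor (LIF) and the same cells after retinoic acid (RA), 197 (60.2%) overlapped the body of a protein-coding or long noncoding gene, from its annotated start to its end, by at least 1 bp. These intragenic regions were split by the sign of the enhancer probability in RA minus that in LIF: 101 were higher in LIF and 96 were higher in RA. The other 130 regions lay outside gene bodies, 85 of them higher in LIF and 45 higher in RA. All regions were selected on their enhancer probabilities by the study's own test, so the probabilities below are descriptions.

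The cells were of E14, a line of mouse embryonic stem cells grown without feeder cells for 48 h. During the last 4 h they either stayed in LIF (mESC+) or were switched to medium without LIF that contained 1 µM RA (mESC-), so that withdrawal of LIF and addition of RA cannot be told apart. Each state had 1 ChIP-seq library for each of 3 histone modifications (H3K4me1, H3K4me3 and H3K27ac), 1 input library, 1 ATAC-seq library and 3 RNA-seq libraries. A probability and an ATAC-seq peak therefore have no replicate behind them, and read totals are unknown.

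Enhancers are stretches of DNA bound by transcription factors that raise transcription from a promoter, and many lie in introns, either of the gene that they act on or of a neighbor. An active enhancer carries H3K4me1 and H3K27ac on the nucleosomes beside an accessible core. RA binds nuclear receptors, which sit as dimers with a retinoid X receptor on direct repeats of a short half-site. LIF acts through the transcription factor STAT3, and the octamer is the site of POU factors such as OCT4 (Pou5f1), which keep stem cells pluripotent.

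As a check of the cell type, 8 of 10 stem cell markers, among them Pou5f1, Nanog, Sox2 and Zfp42, had an ATAC-seq peak within 500 bp of the gene start in both libraries, whereas Esrrb and Sall4 had none at the annotated start. Peaks at the start do not separate cell types here, since 4 of 4 neural and 4 of 4 mesodermal markers also had one in mESC+ (4 and 3 in mESC-), as did 2 of 4 of primitive endoderm in both and 3 and 4 of 4 of trophoblast. Of the 4 stem cell markers listed in the RNA-seq table, Zfp42 had a mean normalized count of 18458 over all libraries, Tdgf1 of 13055, Sox2 of 8169 and Klf4 of 2847. Each other type had 1 listed marker, with 54.1 for Gata6 (primitive endoderm), 174 for Neurod1 (neural), 309 for Eomes (mesoderm) and 2244 for Tfap2c (trophoblast), the last of these close to Klf4.

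Short motifs near the ATAC-seq summits are shown here because counts of such motifs follow below. Direct repeats and STAT motifs at the strongest summit were found in intragenic regions of 1 direction alone, and in a minority of these. The octamer was found in both directions. Over whole regions, so were direct repeats and STAT motifs, as counted below. The first set shows 4 intragenic mESC- regions, those with the largest probability difference that held an exact direct repeat of nuclear receptor half-sites near an ATAC-seq summit and no annotated exon in the window. Each reaches 100 bp to either side of the center of the repeat, on the plus strand of GRCm38 as given by RefSeq, and the repeat is in capitals.
2310008N11Rik, chr8:26844131-26844331: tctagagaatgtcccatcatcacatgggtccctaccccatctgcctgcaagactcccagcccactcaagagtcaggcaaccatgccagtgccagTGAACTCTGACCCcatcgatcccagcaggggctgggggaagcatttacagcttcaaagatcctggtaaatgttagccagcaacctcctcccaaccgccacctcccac
Vps13d, chr4:145034718-145034918: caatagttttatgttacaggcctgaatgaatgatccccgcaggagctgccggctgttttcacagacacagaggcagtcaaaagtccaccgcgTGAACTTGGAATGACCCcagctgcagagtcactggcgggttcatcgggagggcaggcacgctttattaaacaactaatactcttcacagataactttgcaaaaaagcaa
Samd4b, chr7:28484198-28484398: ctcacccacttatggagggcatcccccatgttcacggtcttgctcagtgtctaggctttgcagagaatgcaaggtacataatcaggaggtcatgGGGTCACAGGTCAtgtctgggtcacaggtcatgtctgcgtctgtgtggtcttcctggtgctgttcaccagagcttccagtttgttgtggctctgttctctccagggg
Homer2, chr7:81615351-81615551: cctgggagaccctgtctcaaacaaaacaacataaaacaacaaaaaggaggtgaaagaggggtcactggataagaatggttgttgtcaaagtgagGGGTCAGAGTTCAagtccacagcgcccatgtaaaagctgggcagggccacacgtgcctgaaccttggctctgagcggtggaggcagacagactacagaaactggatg

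The repeat in capitals was spaced by 5 bases in Vps13d, where it reads GGGTCATTCCAAGTTCA on the minus strand. It was spaced by 1 base in the other 3 windows. In 2310008N11Rik and in Homer2 the repeat was made of the same letters, GGGTCAGAGTTCA, on the minus and on the plus strand, respectively. In Samd4b it was GGGTCACAGGTCA, 4 bp from the summit. Further repeats in the Samd4b window, spaced by 5, 2 and 1 bases, overlap or follow this one and are not marked. The second set shows the 4 intragenic mESC+ regions chosen likewise for an octamer or a STAT motif, which is in capitals.
Epha4, chr1:77453985-77454185: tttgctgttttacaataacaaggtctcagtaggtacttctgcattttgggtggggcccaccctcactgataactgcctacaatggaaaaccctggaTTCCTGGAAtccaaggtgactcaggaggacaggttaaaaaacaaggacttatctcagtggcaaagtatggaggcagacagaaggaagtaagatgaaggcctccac
Gm13849, chr6:31901955-31902155: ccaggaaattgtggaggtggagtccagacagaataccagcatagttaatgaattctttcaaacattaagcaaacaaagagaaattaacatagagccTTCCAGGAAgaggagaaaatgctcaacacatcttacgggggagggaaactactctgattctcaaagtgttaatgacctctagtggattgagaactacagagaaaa
Sod2, chr17:12999221-12999421: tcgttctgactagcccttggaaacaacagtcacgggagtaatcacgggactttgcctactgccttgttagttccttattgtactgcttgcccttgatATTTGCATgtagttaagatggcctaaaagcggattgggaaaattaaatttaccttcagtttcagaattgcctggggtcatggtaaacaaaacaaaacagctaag
C330007P06Rik, chrX:36837091-36837291: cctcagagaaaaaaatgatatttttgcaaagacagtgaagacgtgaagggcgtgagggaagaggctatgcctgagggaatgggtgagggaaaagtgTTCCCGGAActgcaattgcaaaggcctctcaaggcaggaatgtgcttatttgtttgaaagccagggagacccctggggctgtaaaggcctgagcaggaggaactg

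Epha4, Gm13849 and C330007P06Rik held a STAT motif (TTCCTGGAA, TTCCAGGAA and TTCCCGGAA), and the Sod2 region held the octamer ATGCAAAT on the minus strand. The window of the Sod2 region lies upstream of that gene, since the region reached only 155 bp into its body.

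The intragenic mESC+ region with the largest probability difference lay in intron 3 of 17 of Epha4 (chr1:77450401-77458300), which encodes an Eph receptor, a tyrosine kinase that binds ephrins on neighboring cells. Its probability was 1 in mESC+ and 0 in mESC-. A second region in the same intron (chr1:77472801-77474400) had 0.941 and 0.099. Cnot2, a subunit of the CCR4-NOT complex that removes poly(A) tails, followed with 0.99 and 0 in intron 1. The lncRNA gene Gm13849 had 0.98 and 0. Ptprk, a receptor-type tyrosine phosphatase, and Apela, which encodes a peptide ligand of the apelin receptor, both had 0.97 and 0. The 12 regions with the largest difference also included those in Pakap, Ctnnd2 (a catenin of neuronal junctions), Sod2 (mitochondrial superoxide dismutase), Gm38825, Gm35330, Ccdc141 and Fbxo36. The last place was a tie with the region in the lncRNA gene A830008E24Rik (0.951 and 0), and the wider region was taken. Over all 101 regions, the median probability was 0.901 in mESC+ (0.666 to 1) and 0 in mESC- (0 to 0.26). The smallest difference among them was 0.64.

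Among the mESC- regions, Nphp4 ranked first. The region lay in intron 12 of 29 (chr4:152533801-152540300), and its probability was 0 in mESC+ and 1 in mESC-. Nphp4 encodes a protein of the base of the primary cilium. The lncRNA gene 2310008N11Rik (chr8:26843601-26845600, intron 1 of 2), Vps13d (intron 65 of 69), which encodes a lipid transfer protein, and Ephb2 (chr4:136776101-136777700, intron 1 of 15), another Eph receptor, all had 0 and 0.99. Thus each direction had an Eph receptor gene among the leading hosts. Next came Camta1, a calmodulin-binding transcription activator, with 0 and 0.98, and Dock6, Samd4b, Homer2 and Ttc7b, also with 0 and 0.98. Spsb1 had 0.0194 and 0.99, and Ddi2 and Cuedc1 had 0 and 0.97. Over all 96 regions, the median was 0.00895 in mESC+ (0 to 0.232) and 0.91 in mESC- (0.662 to 1), with a smallest difference of 0.639.

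**Figure D1:**
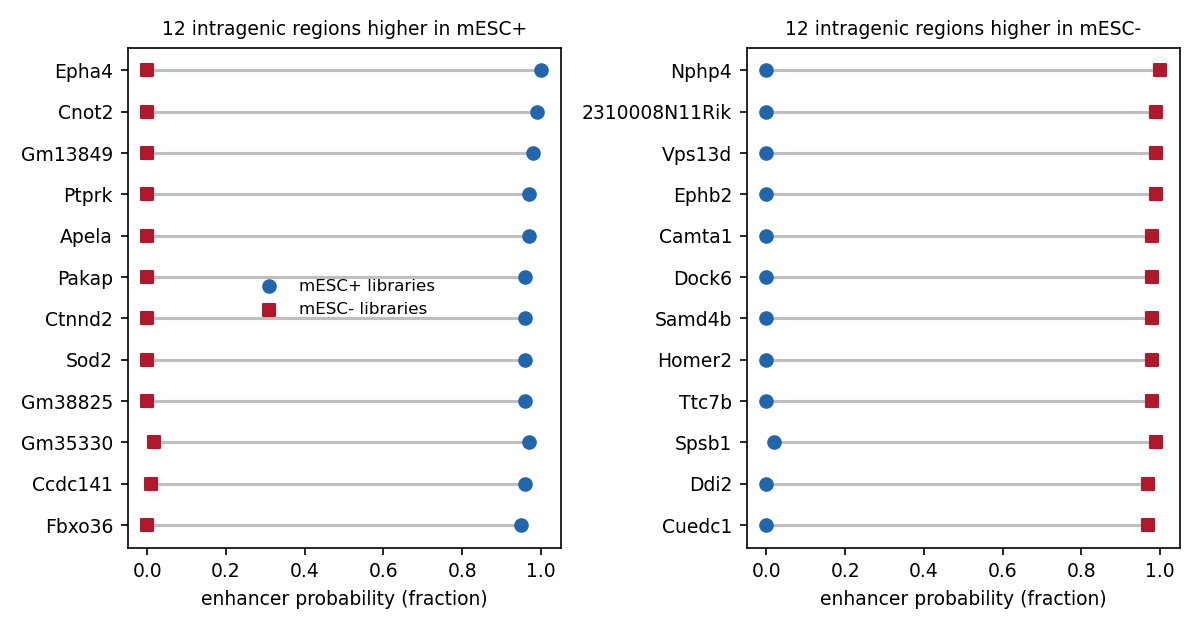
Enhancer probability (x axis, a fraction) in the mESC+ libraries (circles) and in the mESC- libraries (squares) of the 12 intragenic regions of each direction with the largest difference, named by their host genes. The regions were chosen for this difference: in the left panel the last place was tied and went to the wider region, and the circles lie between 0.951 and 1, in the right panel the squares lie between 0.97 and 1.

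The 197 regions overlapped 212 genes, of which 10 held more than 1 dynamic region. In 9 of these, both regions went the same way: Epha4 and Etl4 held 2 mESC+ regions each, and Camta1, Cgnl1 (a protein of cell junctions), Ephb2, Foxk1 (a forkhead transcription factor), Glt1d1, Gm20388 and Sema4b (a semaphorin) held 2 mESC- regions each. The exception was Fbxo36, an F-box gene, with a 7400-bp mESC+ region in intron 1 (0.951 and 0) and a 500-bp mESC- region in intron 2 (0 and 0.662). Most regions lay in 1 gene, whereas 9 mESC+ and 14 mESC- regions lay in at least 2. Gm20388 is a protein-coding model of 4434882 bp that spans other genes, among them Gse1 at 1 of its 2 regions.

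The classes of host differed in number. Long noncoding genes were the only hosts of 20 mESC+ regions, which include Lncenc1, Sox2ot (the lncRNA gene around Sox2) and Gm13849, and of 6 mESC- regions, which include 2310008N11Rik and Pmepa1os. The region at Tsix, the antisense transcript of Xist, also overlapped the gene model Gm26992. Protein-coding genes held 81 and 90 regions, respectively. Intragenic regions made up 54.3% of the mESC+ regions (95% exact binomial interval 46.9 to 61.6%) and 68.1% of the mESC- regions (59.7 to 75.7%), beside 61.4% of all 179949 merged ATAC-seq peaks and 43.8% of the length of chromosomes 1 to 19, X and Y. Intervals here cover counting error over regions alone.

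Within the hosts, the median region center lay at 41.1% of the body from the start for mESC+ and at 49.3% for mESC-. The median distance from the host start to the region center was 34510 bp for mESC+ (quartiles 10079 and 96938 bp) and 29753 bp for mESC- (11724 and 59249 bp), in hosts with a median length of 80355 and 65329 bp. The center fell in an intron for 80 of 101 mESC+ and 68 of 96 mESC- regions, in an exon for 5 and 16, and beyond the transcript chosen to number the introns for 16 and 12. Only 8 regions of each direction came within 1 kb of a host start. The study's enhancer predictor was trained to tell enhancers from active promoters, so this low count cannot be told apart from the selection. An exon of the chosen transcript was touched by 25 mESC+ and by 38 mESC- regions.

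The first intron held 26 of 96 mESC- regions (27.1%, exact interval 18.5 to 37.1%) and 30 of 101 mESC+ regions (29.7%, 21 to 39.6%). No difference was detected (Fisher's exact test, two-sided, p = 0.753, adjusted p = 0.903, Benjamini-Hochberg over the 6 tests of this kind). Intron 2 held 10 and 23 regions, and later introns 32 and 27. Some regions lay far into the host: Vps13d held a mESC- region in intron 65 of 69, Utrn a mESC+ region in intron 50 of 73 and Cdh23 a mESC- region in intron 38 of 69. Regions are not independent replicates of a condition, since neighbors share a gene and all share the same libraries.

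**Figure D2:**
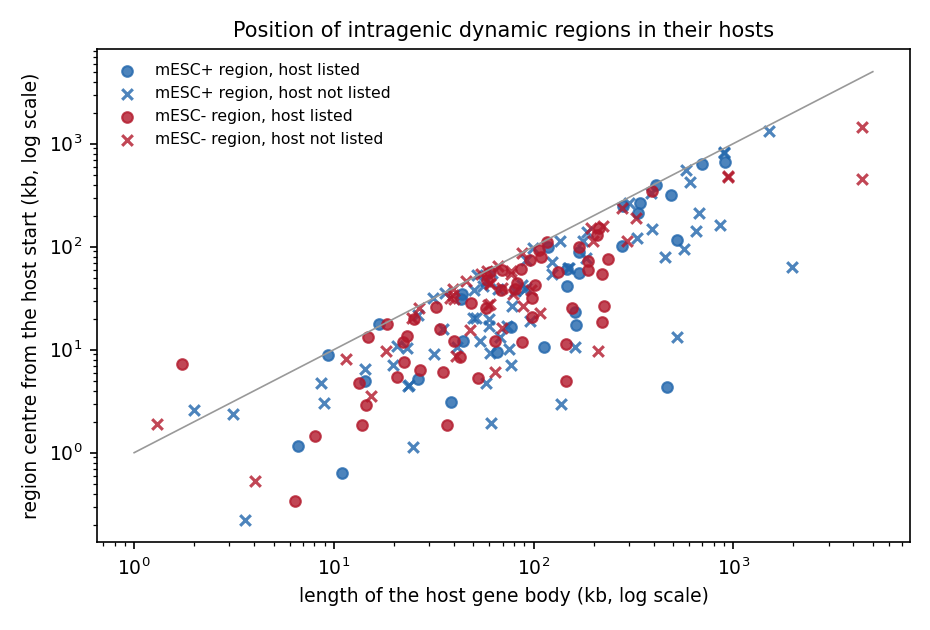
Distance of the region center from the host start against the length of the host gene body, both in kb on log scales, for intragenic mESC+ (blue) and mESC- (red) regions, with filled points where an overlapped gene is listed in the RNA-seq table and crosses where none is. Points near the gray line lie at the end of the body. Regions of both directions are spread over the body, and 2 regions centered at or before the start are not drawn.

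The RNA-seq table lists genes by the authors' comparison of mESC- with mESC+ and holds 2189 genes, all with an adjusted p under 0.1 in that comparison. A gene that is not listed therefore missed this bound or was not tested, and its level is unknown. For the listed genes, only the presence in the table and the mean normalized count over all 6 libraries were used, so no direction is given below. RNA was taken from whole cultures, so that fewer cells of a type and less RNA per cell cannot be told apart. Of all annotated protein-coding and long noncoding genes, 6.47% are listed. Of those with an ATAC-seq peak at their start in both libraries, 10.1% are listed. The host was listed for 54 of 96 mESC- regions (56.2%, exact interval 45.7 to 66.4%) and for 31 of 101 mESC+ regions (30.7%, 21.9 to 40.7%). The difference of 25.6 percentage points passed the test (Fisher's exact test, two-sided, p = 0.00033, adjusted p = 0.00198). With protein-coding hosts only, the shares were 57.8% and 38.3% (adjusted p = 0.0424).

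Counted by gene, 53 of 105 genes overlapped by mESC- regions and 30 of 108 overlapped by mESC+ regions were listed. Of those with a peak at their start in both libraries, 42 of 82 (51.2%) and 24 of 81 (29.6%) were listed, beside the 10.1% given above. None of the 20 regions held only by long noncoding genes in mESC+ had a listed host, and 2 of the 6 in mESC- did, through Pmepa1os and Gm16063. Beside the share of listed hosts, the center windows of mESC- regions had a median GC content of 52.7%, against 44.3% in mESC+, and a median of 4 against 3 gene starts lay within 100 kb. The part of these values in the result was not tested.

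By mean count, the leading listed hosts of mESC+ regions were Mtf2 (19352), Eed (11158), Sgk1 (10378), Sall1 (9359) and Emb (7713). Eed is a core subunit of the Polycomb repressive complex that methylates H3K27, and Mtf2 is an accessory subunit of the same complex. Sgk1 encodes a serine/threonine kinase, Sall1 a zinc finger transcription factor and Emb the membrane protein embigin. The Eed region lay in intron 2 of 11 with probabilities of 0.893 and 0, and the 500-bp Mtf2 region in intron 9 of 14 with 0.845 and 0.0174. Epha4 had a mean count of 3062.

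Among mESC- regions, the leading listed hosts were Rarg (9926), Qk (9259), Dock6 (8737), Dnmt3a and Myrf (6838 each). Rarg encodes the gamma receptor of RA itself. Its region (chr15:102246901-102252900, 6000 bp) was centered in intron 3 of 9 and had probabilities of 0.038 and 0.931. It held a direct repeat spaced by 5 bases, GGTTCAAAGTGAGGTCA, 69 bp from a summit of the mESC- list. That peak was weak, with a fold enrichment of 3.78 over background (percentile 4.3 of its list). The strongest summit of the Rarg region had no direct repeat. Qk encodes an RNA-binding protein of splicing, Dock6 an exchange factor for small GTPases, Dnmt3a a DNA methyltransferase that sets new marks and Myrf a transcription factor of myelin genes. Nphp4 had a mean count of 390, Ephb2 of 776 and Cgnl1 of 4604, whereas 2310008N11Rik, Vps13d and Camta1 were not listed.

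Of 40 genes of RA signaling, 29 were listed, beside 6.47% of all genes, and 2 were hosts of a dynamic region, beside 0.661% of all genes. Many genes of the list are known to respond to RA, and it was chosen with earlier results known, so these counts support nothing further. Both hosts, Rarg and Dhrs3, held mESC- regions. Dhrs3 encodes a reductase that turns retinaldehyde back to retinol. Its 1000-bp region (chr4:144898401-144899400) lay in intron 1 of 5, 5574 bp from the gene start, with probabilities of 0.0174 and 0.846, and the mean count of the gene was 186. The Hoxb cluster and Stra8, which also had a mESC- region within 100 kb, hosted none, and no gene of the list started within 100 kb of a mESC+ region.

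Of 40 genes of LIF signaling and pluripotency, 22 were listed (again beside 6.47%) and none hosted a region, but 5 started within 100 kb of an intragenic one. The share of all genes that start so close was not computed, so nothing is drawn from this count. A 900-bp mESC+ region in intron 1 of Sox2ot (0.883 and 0) lay 4096 bp from the start of Sox2, which had a mean count of 8169. Mycn (mean count 5500) started 32014 bp from a mESC+ region in the lncRNA gene Gm40271, and Dusp6, a phosphatase of ERK kinases (3256), started 89470 bp from one in B530045E10Rik. Tbx3, a T-box transcription factor (2574), started 40669 bp from a mESC- region in Tbx3os1, and Bcl3, which is not listed, 87870 bp from one in Nectin2. Outside genes, Pim1 (4654) started 19348 bp and Sall4, which is not listed, 82658 bp from a mESC- region. Inside and outside together, 3 genes of the list started within 100 kb of a mESC+ region and 4 of a mESC- region. Aqp3, a water and glycerol channel, hosted no dynamic region.

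A listed gene, host or not, started within 100 kb of 39 of 101 intragenic mESC+ regions (38.6%, exact interval 29.1 to 48.8%) and of 16 of 85 mESC+ regions outside genes (18.8%, 11.2 to 28.8%). This difference passed the test (Fisher's exact test, two-sided, p = 0.00368, adjusted p = 0.011). Within 50 kb and 20 kb it did not, at 25.7% against 12.9% (adjusted p = 0.125) and 17.8% against 8.24% (adjusted p = 0.175). The start of the host itself counts here for an intragenic region, whereas a region outside genes has no host. The arms were therefore unlike by the rule, and nothing further is drawn from the difference. With the host not listed, another listed gene started within 100 kb of 16 of 101 intragenic mESC+ regions (15.8%), beside the 18.8% outside. The median number of gene starts within 100 kb was 3 for the intragenic and 1 for the other mESC+ regions. The part of the hosts and of this number in the result was not tested. For mESC- regions the shares were 70.8% (68 of 96, 60.7 to 79.7%) inside and 55.6% (25 of 45, 40 to 70.4%) outside, a difference that did not pass (p = 0.0877, adjusted p = 0.175, the same exact test), with a median of 4 gene starts in both.

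**Figure D3:**
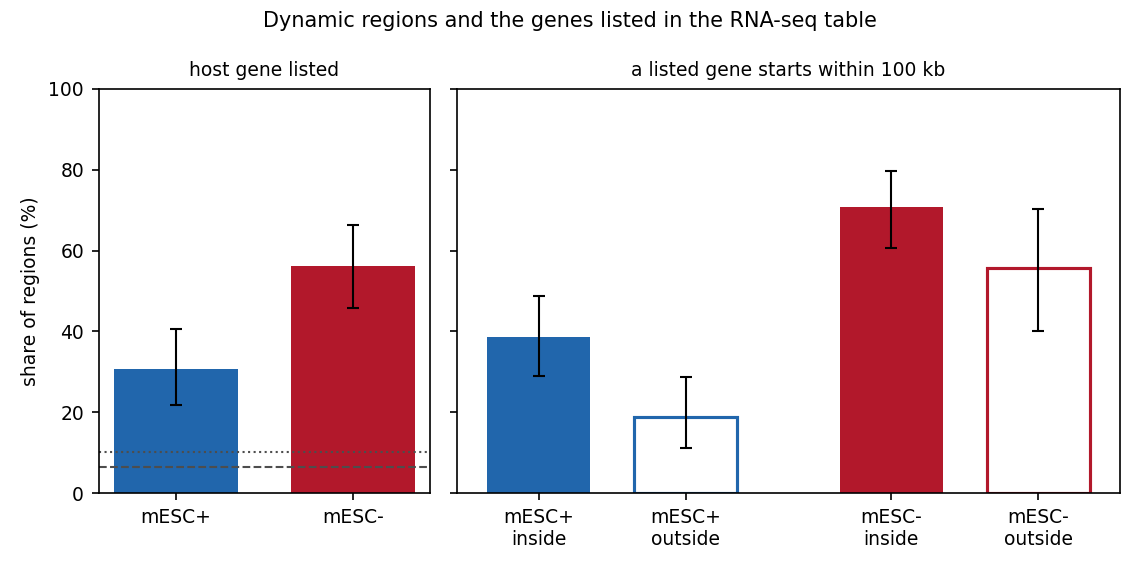
Share of regions (%) with a listed host (left) and with a listed gene, host included, starting within 100 kb (right), with 95% exact binomial intervals. Filled bars are intragenic regions and open bars regions outside genes, which have no host. The dashed line at 6.47% is the share of all genes that are listed, the dotted line at 10.1% that among genes with a peak at their start, and the bar of listed hosts is higher for mESC- (56.2%) than for mESC+ (30.7%).

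Where the host was not listed, another listed gene started within 100 kb of 16 mESC+ and 16 mESC- regions, at a median distance of 51750 and 10578 bp. For mESC- regions these pairs included Camta1 with 4930589P08Rik (1370 bp), Samd4b with Gm6518 (4549 bp), Sema4b with Cib1 (6913 bp), Ddi2 with Plekhm2 (7402 bp) and Foxk1 with Ap5z1 (10544 bp). For mESC+ regions they included Nup155 with Cplane1 (6006 bp). No listed gene was found, as host or within 100 kb, for 54 mESC+ regions and 26 mESC- regions, among them those in Cnot2, Ptprk and Apela and those in Vps13d and 2310008N11Rik.

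ATAC-seq reads accessible DNA through insertions of a transposase and was called into 163484 peaks in mESC+ and 141465 in mESC-. Of the intragenic mESC- regions, 71 of 96 (74%, exact interval 64 to 82.4%) held a peak of the mESC- list, compared with 33 of 45 (73.3%, 58.1 to 85.4%) outside genes (Fisher's exact test, two-sided, p = 1). Of the intragenic mESC+ regions, 89 of 101 (88.1%, 80.2 to 93.7%) held a peak of the mESC+ list, compared with 69 of 85 (81.2%, 71.2 to 88.8%) outside genes (p = 0.219, adjusted p = 0.329, the same exact test). No difference between inside and outside was detected in either direction.

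Few regions held peaks of 1 list alone. Of the 96 intragenic mESC- regions, 12 (12.5%) held peaks of the mESC- list and none of the mESC+ list. The same was seen in 0 of 101 mESC+ regions, where the exact interval reaches 3.59%. The reverse held for 5 of 101 mESC+ regions (4.95%) and for 0 of 96 mESC- regions, where the exact interval reaches 3.77%. Among all merged peaks, 11% were in the mESC- list alone and 23.7% in the mESC+ list alone, so that 12.5% lies near the first share and 4.95% below the second, and a region of several kb can hold more than 1 peak. Outside genes, peaks of the mESC- list alone were held by 6 of 45 mESC- regions (13.3%) and 0 of 85 mESC+ regions, and peaks of the mESC+ list alone by 6 of 85 mESC+ regions (7.06%) and 2 of 45 mESC- regions (4.44%). Both lists had a peak in 84 mESC+ and 59 mESC- regions, and neither had one in 12 and 25. The regions without a peak were narrow, with a median width of 500 and 600 bp against 2800 and 2000 bp for those with a peak.

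The 12 mESC- regions with a peak in mESC- alone included those in Nphp4, 2310008N11Rik, Camta1, Tbx3os1, Fbxo36, Igsf21, Foxp4, Plxnb1, Rapgef3, Zc3h3 and Gm37571. In Nphp4 the single peak had a fold enrichment of 9.71 over background (percentile 77.2 of its list), and in 2310008N11Rik the stronger of 2 peaks had 7.18 (percentile 58). The peaks were not all strong, with 3.14 in Zc3h3 and 10.49 in Igsf21 at the ends of the range. The 5 mESC+ regions with a peak in mESC+ alone lay in Eif4b, Jazf1, Lyrm1, Top1 and Gm28037, at fold enrichments of 2.78 to 7.93.

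Where both lists had a peak, the strongest peaks were compared by their percentile within their own list. The lists differ in length and the read totals are unknown, so that these ranks and the fold enrichments do not measure a change of accessibility. The strongest mESC- peak had the higher percentile in 30 of 59 mESC- regions and in 44 of 84 mESC+ regions, with a median difference of 0.5 and 0.35 percentile points. In single regions the values lay further apart. Those named next all had the higher fold enrichment in the state of their own direction. By percentile, 29 of the 59 mESC- regions and 44 of the 84 mESC+ regions ranked the other way. In Ephb2 (chr4:136776101-136777700) the fold enrichment was 5.1 in mESC+ and 10.75 in mESC-, and in Samd4b 6.3 and 10.86. In Pde6a, which encodes a phosphodiesterase of rod photoreceptors, it was 3.93 and 11.49. In the leading Epha4 region, both lists held 3 peaks, and the strongest stood at 9.2 in mESC+ and 6.92 in mESC-. Peak numbers, which also depend on the length of the lists, were higher in mESC- in 27 and in mESC+ in 4 of the 96 mESC- regions, and higher in mESC+ in 33 and in mESC- in 9 of the 101 mESC+ regions. With 1 library per state, these differences have no test.

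**Figure D4:**
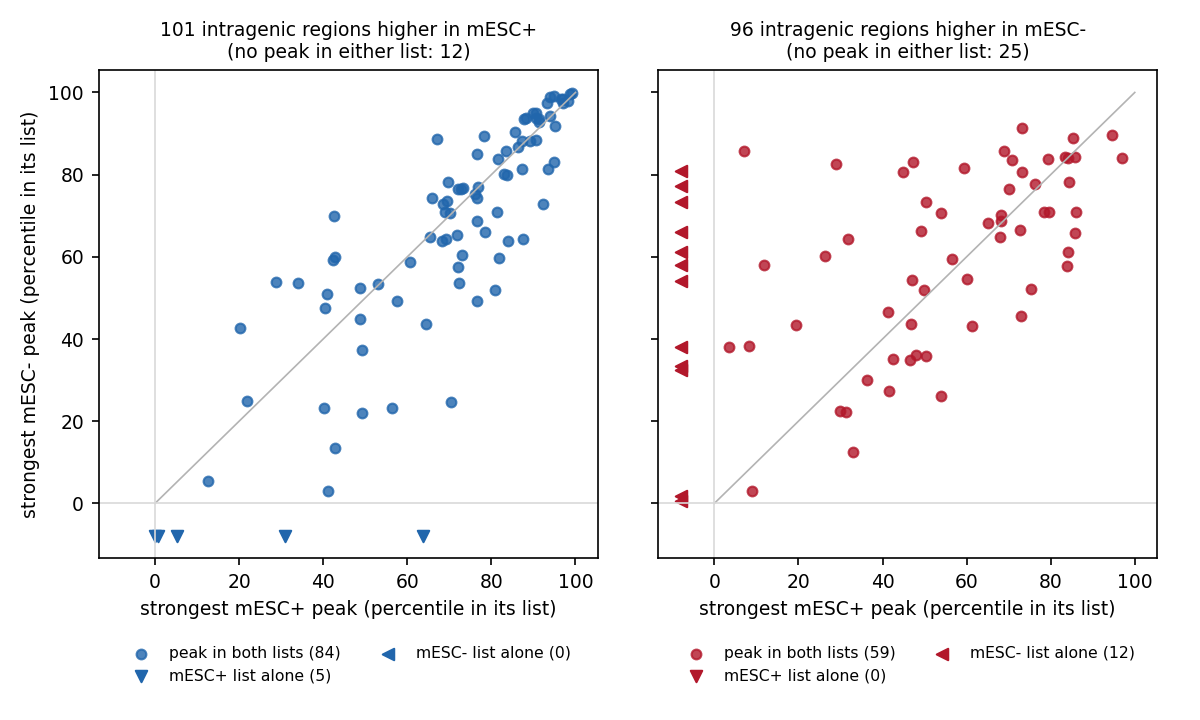
Percentile of the strongest ATAC-seq peak within its own list, mESC+ on the x axis and mESC- on the y axis, for intragenic mESC+ regions (left) and mESC- regions (right). Points are regions with a peak in both lists (84 and 59), triangles below or left of 0 are regions with a peak in the mESC+ list alone (5 on the left) or in the mESC- list alone (12 on the right), and the gray line marks equal percentiles.

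Motifs of the kinds shown above were counted by exact match on both strands in 300-bp windows. Each window lay around the strongest summit of the list of a region's own state. Motifs shown at a weaker summit, as in Epha4 and Gm13849, are therefore not in these counts. Direct repeats were pairs of half-sites spaced by 5, 2 or 1 bases, where each half-site was the usual AGGTCA, the variant AGTTCA that RA response elements can carry, a further variant GGGTCA of the same kind, or the form GGTTCA. They were found in 14 of 71 windows of intragenic mESC- regions (19.7%, exact interval 11.2 to 30.9%), whereas 1.24% of all windows of the mESC- list and 0.852% of the mESC+ list held one. In mESC+ regions they were found in 0 of 89 windows, where the exact interval reaches 4.06%. Outside genes the counts were 6 of 33 (18.2%) for mESC- and 0 of 69 for mESC+ regions.

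By spacing, 8 of the windows held a repeat spaced by 5, 5 one spaced by 2 and 4 one spaced by 1, with some windows counted more than once. The 14 windows lay in Dhrs3, Vps13d, Samd4b, Homer2, 2310008N11Rik, Fbxo36, Ino80d, Tmem243, Tbx3os1, Ap5z1, Sema4b, Cx3cr1, Cpne5 and Pde6a. A gene overlapped by the region was listed for 8 of them, beside 54 of all 96 intragenic mESC- regions (56.2%). The Samd4b window held repeats of all 3 spacings, and the windows in Dhrs3 and 2310008N11Rik held one spaced by 5. Around any summit of the mESC- list inside the region, as for the sequences shown above, 22 intragenic mESC- regions held a direct repeat within 150 bp. In the same search, 20 mESC+ regions held an octamer or STAT motif that close to a summit of their own list. Each kind of motif was searched in this way in 1 direction only, without a share of all peaks, so these counts are no contrast.

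The ESRRB motif TCAAGGTCA, which contains the half-site AGGTCA, was found in 5 of 71 mESC- windows (7.04%) and 0 of 89 mESC+ windows, beside 1.4% and 1.2% of all peaks. The exact interval of 0 of 89 reaches 4.06%. ESRRB is an orphan nuclear receptor of stem cells. The STAT motif TTCCNGGAA went the other way, with 5 of 89 mESC+ windows (5.62%) and 0 of 71 mESC- windows, beside 1.19% and 1.1% of all peaks. The 5 windows lay in A930001A20Rik, Fam110b, Dlg2, Mtcl1 and C330007P06Rik. The exact interval of 0 of 71 reaches 5.06%. The octamer was found in 5 mESC+ windows (5.62%) and 3 mESC- windows (4.23%), beside 2.78% and 2.92%. Around the region center instead of the summit, direct repeats were found in 4 of 96 mESC- and 0 of 101 mESC+ windows. Over whole regions, which differ in width, they were found in 37 of 96 mESC- (38.5%) and 6 of 101 mESC+ regions (5.94%). The STAT motif was found in 5 of 96 mESC- (5.21%) and 17 of 101 mESC+ whole regions (16.8%). The octamer was found in 5 of 96 mESC- (5.21%) and 21 of 101 mESC+ whole regions (20.8%). For the ESRRB motif the counts were 16 of 96 mESC- (16.7%) and 10 of 101 mESC+ whole regions (9.9%). The median width was 1400 bp for mESC- and 2500 bp for mESC+ regions. These matches are a description of letters and show no binding.

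**Figure D5:**
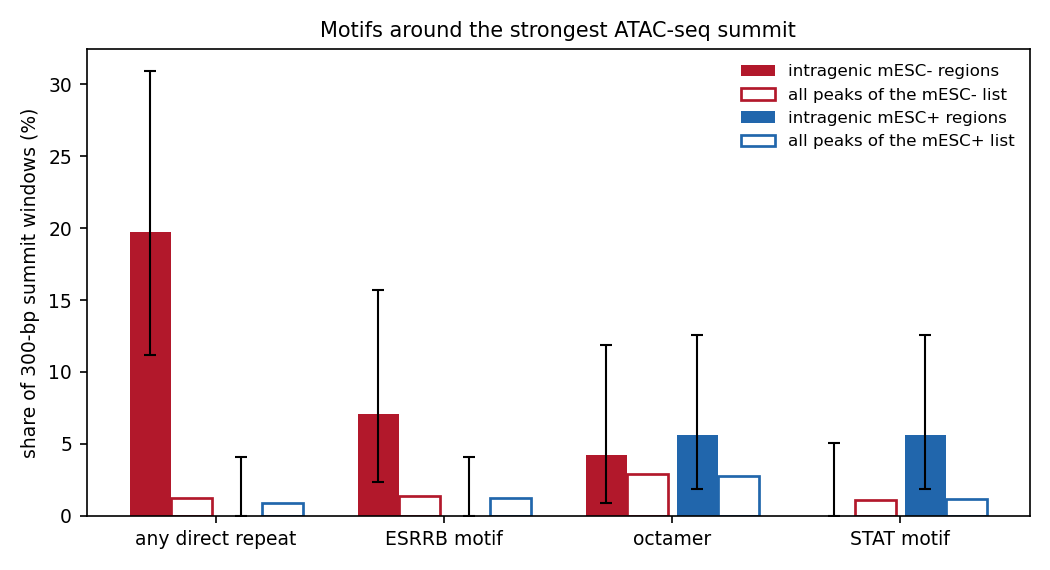
Share of 300-bp windows around the strongest ATAC-seq summit (%) that held each motif, for intragenic mESC- (filled red, 71 windows) and mESC+ regions (filled blue, 89 windows) with 95% exact binomial intervals, beside all peaks of each list (open bars). Direct repeats stand at 19.7% in the mESC- regions and at 0 in the mESC+ regions, and the STAT motif at 0 and 5.62%.

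At the border of the rule, Sod2 was entered by 155 of 9600 bp of its region, Cxcr3 by 169 of 600 bp and Rps23 by 250 of 1700 bp. Just outside, regions ended 46 bp from H2al3, 185 bp from Zfp182 and 347 bp from Noct. In all, 22 of the 197 regions lay only in part within a body.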

How the data were processed

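The data cover E14 cells in mESC+ and mESC-. The authors computed an enhancer probability per region, a fraction, from input-normalized ChIP-seq counts in GRCm38 with CRUP, and the deposited list holds 327 dynamic regions. ATAC-seq peaks were called by the authors per library with MACS2. Each peak has, in their deposited list, a ratio to background (fold enrichment), a −log10 p and a −log10 q value. The deposited RNA-seq table from DESeq2 gives the authors' mean normalized count (a signal) of 2189 genes. Its fold changes, errors, test scores and p-values, and the p-value and cluster of each region, are results of the authors' comparison and were not used, except that the adjusted p-values were read for the bound that all listed genes lie under (0.1). The sources name different RNA-seq mappers: the paper BWA-MEM, the submitters' processing notes STAR 2.5.1b. Whether reads were counted by strand is not given in the sources used here, so overlapping and antisense genes are uncertain. Unmapped sample columns number 0.

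Gene bodies came from GENCODE M21 (GRCm38). Where several genes overlapped a region, the protein-coding one with the larger overlap was taken as host, introns were numbered in its principal transcript, and a host counted as listed when any overlapped gene was. Two-sided Fisher's exact tests compared shares, with p-values of the 6 tests adjusted by Benjamini-Hochberg and a threshold of 0.05. Sequences came from RefSeq GRCm38.p6, and motifs were exact matches. Named hosts are those of the 12 largest probability differences per direction, hosts with several regions, hosts in 2 lists of 40 genes, the 5 highest listed means per direction, and Epha4, Nphp4, Aqp3 and 2310008N11Rik. Others were chosen after their values were seen. A few single genes are not reported here. The members and lists were chosen with earlier results of these data known. All 8 checks of the functions on simulated data passed. Python 3.11.15, pandas 2.3.3, SciPy 1.17.1 and pysam 0.24.0 were used.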

Additional observations from a re-analysis of the deposited data

How the results depend on the processing

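Of 80 values recomputed under an alternative, 74 kept their direction and their side of the threshold or stayed within 1.5 times the count. The higher share of listed hosts among mESC- regions passed under every alternative run for it, with differences of 19.5 to 28.5 percentage points and adjusted p of 0.000694 to 0.0424. For mESC+ regions, the excess of listed genes, hosts included, near intragenic regions no longer passed within 20 kb (9.59 percentage points) and 50 kb (12.8 percentage points), where fewer regions have a listed gene. The difference in mESC- peaks between inside and outside, which was not called, changed sign with whole regions inside the body (-0.0775 percentage points), with protein-coding hosts only (-4.25) and with summits inside the region (-3.54), and that in mESC+ peaks with 1100 bp around the center (-2.53). Counting genes of the biotype TEC as hosts, an alternative chosen after seeing the data, changed no value. No paired analysis was possible because every assay with values per library has 1 library per state and RNA-seq is given as a mean, so that no replicate could be left out either. Depth is unknown and limits the regions without a peak, which were narrow.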
